A study of Mus musculus with 768 samples.

Results

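Mfap5, Ogn and 6 further small leucine-rich proteoglycan (SLRP) genes, Dcn, Lum, Bgn, Fmod, Prelp and Omd, were followed across single Schwann cells (SCs) of the adult mouse sciatic nerve. These 8 genes were taken by name from the 25700 genes of the count table, and all 8 were found there. Mfap5 and Ogn were chosen by their expression in these very cells, as genes that lead a cluster of myelinating cells over the rest, so their levels are given as a description, without a test. The other 6 genes were chosen as relatives of Ogn. The cells came from C57BL/6J mice of genotype P0Cre-/+ : ReYFP Tg/+ : βAct-DsRed Tg/+ at postnatal day 60, in which the P0 promoter drives Cre and so switches on a yellow fluorescent protein in the SC lineage. Sciatic nerves were dissociated with enzymes, and eYFP-positive cells were sorted singly into 2 plates of 384 wells, each plate holding cells of other animals, 2 male and 2 female mice pooled. There was no treatment and no control group, so the cell classes within the 2 plates were compared. Libraries were made with Smart-Seq2, which covers whole transcripts but does not tag single molecules, and all counts below are of reads.

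SLRPs are secreted proteins built from leucine-rich repeats that bind collagen fibrils and set their spacing and width. Decorin (Dcn) and biglycan (Bgn) carry chondroitin or dermatan sulfate chains and bind TGF-β. Lumican (Lum), fibromodulin (Fmod), osteomodulin (Omd) and Prelp form a further branch of the family, several of whose members carry keratan sulfate, and osteoglycin (Ogn, also called mimecan) belongs to another. Mfap5, also called MAGP-2, is no SLRP: it is a glycoprotein of the fibrillin microfibrils that form the scaffold of elastic fibres. In peripheral nerve these proteins are best known from the collagen-rich matrix around the fibres, where fibroblasts are a classic source.

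The genes lie in a few small groups in the genome (GRCm38 coordinates of the GENCODE M21 annotation). Mfap5 lies alone on chromosome 6, from 122505845 to 122529290. Omd (chromosome 13, 49582462 to 49592822) and Ogn (chromosome 13, 49608046 to 49624501) are neighbours 15.2 kb apart on the plus strand. Dcn and Lum are 47.0 kb apart on chromosome 10, Prelp and Fmod 115.8 kb apart on chromosome 1, and Bgn lies on chromosome X. The exons of Prelp overlap an antisense gene that has no row in the table, and the strand setting of the read counting was not stated, so reads of the pair cannot be told apart. The exons of the other 7 genes overlapped no other annotated gene. Promoter sequences were found for 5 of the 8 members. Those of the neighbours Ogn and Omd are shown, because these adjacent genes differed in how many cells used them. Each is the 250 bases before the RefSeq start (GRCm38.p6, plus strand), at chr13:49607765-49608014 for Ogn and chr13:49582212-49582461 for Omd. Capitals mark matches to TATAAA, to ACAAAG (the core bound by SOX factors) or to GCGTGGG (an EGR core), searched on both strands.
Ogn: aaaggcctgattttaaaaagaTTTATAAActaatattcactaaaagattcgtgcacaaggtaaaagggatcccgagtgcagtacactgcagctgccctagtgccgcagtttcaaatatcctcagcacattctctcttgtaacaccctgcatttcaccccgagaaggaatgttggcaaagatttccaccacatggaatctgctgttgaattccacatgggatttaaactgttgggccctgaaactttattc
Omd: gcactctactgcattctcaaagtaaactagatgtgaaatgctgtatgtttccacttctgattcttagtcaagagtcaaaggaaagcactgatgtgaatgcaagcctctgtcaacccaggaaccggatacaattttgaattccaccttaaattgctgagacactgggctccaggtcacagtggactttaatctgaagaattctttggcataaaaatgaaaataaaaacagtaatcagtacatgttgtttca
In the Ogn window TATAAA matched 227 bases before the start, overlapping a match on the other strand 229 bases before it. These are matches of letters only. The Omd window held none of the 3 motifs. Of 32851 promoter windows of this length, 12.4% held TATAAA, 16.5% ACAAAG and 4.30% GCGTGGG.

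The table held 74280540 reads in plate 1 and 209404659 reads in plate 2. Cells with at least 1500 detected genes were kept, 340 of plate 1 and 334 of plate 2. They were clustered with the 8 members left out, and clusters were named from markers of myelinating SCs (mSCs) and of nonmyelinating, or Remak, SCs (nm(R)SCs). Clusters 3 and 4 were mSC-like, with 148 cells in plate 1 (43.5% of kept cells) and 73 in plate 2 (21.9%). Clusters 0, 1 and 2 were nm(R)SC-like, with 177 and 248 cells, and cluster 5, with 28 cells and cell cycle genes in the lead, stayed unnamed. All 11 mSC markers exceeded 50 CPM (reads of the gene per 1000000 reads) in the summed mSC-like cells of either plate. Sox10, the transcription factor gene of the SC lineage, had 5 or more reads in 89 of 100 and 42 of 72 mSC-like cells compared at equal depth, and of 14 markers of fibroblast-like cells, Pdgfra reached that level in 0 and 0, Col3a1 in 31 and 18, Itgb4 in 61 and 33, Col1a1 in 68 and 21 and Col1a2 in 94 and 52 of these cells.

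To compare cells at equal depth, each cell was thinned to 100000 reads, and a gene was called detected with 5 or more of them. This left 100 mSC-like cells in plate 1 and 72 in plate 2, and 111 and 240 nm(R)SC-like cells. Intervals are exact 95% binomial intervals. For a count of 0 the share that 3 cells would make up is given as the limit it allows, which is somewhat below the exact upper bound. Both cover counting error only.

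Mfap5 divided the mSC-like cells sharply. Plate 1 had it in 59 of 100 mSC-like cells (59%, 48.7 to 68.7%) and plate 2 in 19 of 72 (26.4%, 16.7 to 38.1%), a mean of 42.7% ± 23.1 (SD, n = 2 plates). The plates' intervals lay apart. Cells either had many Mfap5 reads or almost none. In plate 1, the highest Mfap5-negative cell had 4 reads and the lowest positive cells 28 and 47, with a median of 247 and a maximum of 796 in the positive cells. In plate 2, every negative cell had 0 reads and the lowest positive cells had 38 and 86, with a median of 297 and a maximum of 536. No mSC-like cell of either plate had between 5 and 19 reads, so a threshold of 20 reads gave the same 59 and 19 cells.

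Among nm(R)SC-like cells, those with Mfap5 numbered 2 of 111 (1.80%) in plate 1 and 0 of 240 in plate 2, which allows a share of up to 1.25%. Summed over plate 1, mSC-like cells had 1711 CPM of Mfap5 and nm(R)SC-like cells 17.3 CPM, and the plate 2 sums were 780 and 0.0520 CPM. Plate 1 thus had a low level of Mfap5 in cells of every class that plate 2 lacked. Any read of Mfap5 was found in 304 of 384 wells of plate 1 but in 29 of 384 of plate 2. Plate 1 cells are named by pairs of index sequences. Among genes other than the members with at least 1000 reads in plate 1, only 7 had 90% or more of them in a single cell. Reads of these genes appeared in 41.0% of the cells that shared the first index with that cell (105 pairs of cells). They appeared in 44.7% of those that shared the second (161 pairs), against 0.994% of cells that shared neither. At those rates (0.0442% and 0.0408% of the source cell's reads) a plate 1 nm(R)SC-like cell would receive a median of 2.23 Mfap5 reads from its index partners. The observed median was 2 reads, and over these 177 cells the Mfap5 reads had a rank correlation of 0.27 with the reads of cells sharing the first index, 0.39 with those sharing the second and 0.26 with the cell's own depth. The part of exchange in the low reads was not tested. Expected reads were subtracted in plate 1 only, which left its share of Mfap5-positive mSC-like cells at 59 of 100. The lowest positive cells there had 28 and 47 reads after thinning, so removing a few reads could hardly change that share.

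**Figure D1:**
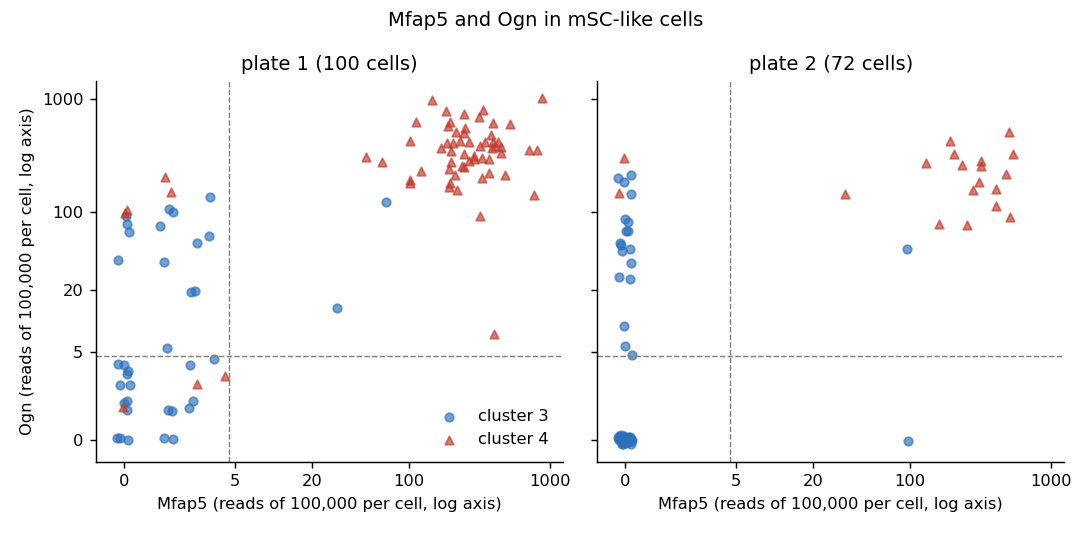
Mfap5 (x axis) against Ogn (y axis) in each mSC-like cell, in reads of 100000 on log axes, for plate 1 (100 cells, left) and plate 2 (72 cells, right). Symbols give the cluster found without the 8 genes and dashed lines the detection threshold of 5 reads; points are jittered slightly. Cells right of the vertical line have 7 to 1070 Ogn reads in plate 1 and 0 to 494 in plate 2, and cells left of it 0 to 197 and 0 to 319.

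The Mfap5 groups followed the clusters that were built without any of the 8 genes. Cluster 4 held 57 of the 59 Mfap5-positive cells of plate 1 (96.6%) and 17 of the 19 of plate 2 (89.5%). Cluster 3 held 34 of 41 Mfap5-negative cells of plate 1 (82.9%) and 51 of 53 of plate 2 (96.2%). The match was not complete: 2 cells of cluster 3 were Mfap5-positive in each plate, and 7 and 2 cells of cluster 4 were negative. Since Mfap5 was chosen for leading such a cluster, this overlap is a description. Positive and negative cells had similar depth in plate 1 (medians of 236138 and 225892 reads), whereas in plate 2 positive cells had fewer reads (500343 against 722937). Sox10 stood at 326 CPM (positive) and 537 CPM (negative) in plate 1, and at 228 and 242 CPM in plate 2. At equal depth Sox10 was detected in 51 of 59 positive and 38 of 41 negative cells of plate 1. In plate 2 it was detected in 6 of 19 positive and 36 of 53 negative cells, a lower share in the positive cells despite the like sums.

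Ogn was detected in nearly all Mfap5-positive cells, but also well beyond them. It was found in 77 of 100 mSC-like cells of plate 1 (77%, 67.5 to 84.8%) and 38 of 72 of plate 2 (52.8%, 40.7 to 64.7%), a mean of 64.9% ± 17.1 (SD, n = 2 plates). All 59 Mfap5-positive cells of plate 1 and 18 of the 19 of plate 2 (94.7%, 74.0 to 99.9%) had Ogn. Among Mfap5-negative cells, 18 of 41 (43.9%, 28.5 to 60.3%) and 20 of 53 (37.7%, 24.8 to 52.1%) had it. Mfap5 without Ogn was therefore seen in 1 cell of 78, whereas Ogn without Mfap5 was seen in 38 cells.

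The odds of finding Mfap5 and Ogn together were high in each plate. In plate 1, 59 cells had both genes, 18 only Ogn, 0 only Mfap5 and 23 neither, and 45.4 cells with both would follow from the product of the shares. In plate 2 the numbers were 18, 20, 1 and 33, against a product of 10. The log2 odds ratio, with 0.5 added to each count, was 7.24 in plate 1 and 4.33 in plate 2. The rank correlation over mSC-like cells was 0.74 (100 cells) and 0.66 (72 cells). Within the Mfap5-positive cells alone it was 0.12 (59 cells) and 0.30 (19 cells). Cells chosen by their Mfap5 reads span a narrower range of Mfap5, so these lower correlations cannot be set against those over all mSC-like cells. How far the genes shared levels was not resolved. These are descriptions over cells that share a library plate and depth.

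The level of Ogn separated the groups as well as its presence. In Mfap5-positive cells Ogn had a lowest value of 7, a median of 340 and a highest value of 1070 reads of 100000 in plate 1, and of 0, 191 and 494 reads in plate 2. In Mfap5-negative cells the lowest, median and highest values were 0, 4 and 197 reads in plate 1 and 0, 0 and 319 in plate 2. Even the Mfap5-negative cells that had Ogn were lower, with a median of 76.5 and 61.5 reads. The ranges overlapped in both plates, so the level of Ogn did not mark the Mfap5-positive group by itself. Summed over cells, the Mfap5-positive group had 3854 CPM of Ogn and the Mfap5-negative group 422 CPM in plate 1, and 2091 and 305 CPM in plate 2, log2 ratios (1 CPM added) of 3.19 and 2.77.

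Compared per exon length, the summed levels of Ogn and Mfap5 in Mfap5-positive cells were of like order, while their ratio varied widely between single cells. Summed levels in Mfap5-positive cells were 1502 RPKM (CPM per kilobase of exon) for Ogn and 809 for Mfap5 in plate 1, and 815 and 837 in plate 2. Cell by cell, the ratio of Ogn to Mfap5 per length had a median of 1.66 in plate 1 (0.0243 to 10.1) and exceeded 1 in 49 of 59 cells. In plate 2 its median was 0.779 (0 to 5.63), and it exceeded 1 in 7 of 19 cells. Which of these genes had the higher level hence differed between the plates.

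Ogn was also the only member seen in a sizeable share of nm(R)SC-like cells, where Mfap5 was near 0. It was detected in 31 of 111 such cells of plate 1 (27.9%, 19.8 to 37.2%) and 55 of 240 of plate 2 (22.9%, 17.8 to 28.8%). Its summed level there was 146 and 165 CPM, below that of Mfap5-negative mSC-like cells in either plate. Among nm(R)SC-like clusters, Ogn was detected in 12 of 27 and 30 of 83 cells of cluster 2, led by Apoe and Aldh1a1, in 12 of 33 and 21 of 109 cells of cluster 0, led by Apoe and Scn7a, and in 7 of 51 and 4 of 48 cells of cluster 1, led by Ednrb and ribosomal protein genes. Cluster 2 had a higher share than cluster 0 in both plates. The intervals of clusters 0 and 2 overlapped widely in plate 1 (20.4 to 54.9% and 25.5 to 64.7%) and slightly in plate 2 (12.3 to 27.9% and 25.9 to 47.4%). Their order was not tested. Of the 177 plate 1 nm(R)SC-like cells, 167 had at least 1 Ogn read, with a median of 3 reads where the exchange rates above would give 3.33. The rank correlations with partners' reads were 0.16 and 0.15, and 0.15 with own depth, and the part of exchange was not tested.

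**Figure D2:**
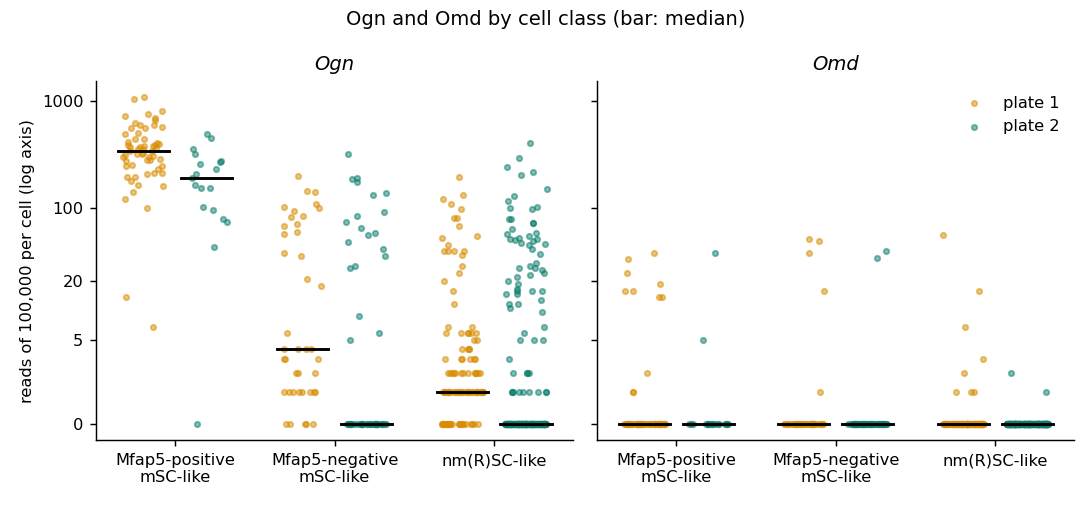
Reads of Ogn (left) and Omd (right) in each cell thinned to 100000 reads, on a log axis, by cell group; orange is plate 1, green plate 2, and black bars are medians. The Ogn medians of Mfap5-positive cells (340 and 191 reads) stand above those of the other groups, while Omd is at 0 in most cells of all groups.

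Omd, the neighbour of Ogn, was found in far fewer mSC-like cells than Ogn or Mfap5, too few to tell whether it followed them there. Among nm(R)SC-like cells, 3 of 111 in plate 1 had Omd, and 0 of 240 in plate 2, which allows a share of up to 1.25%. It was detected in 12 of 100 mSC-like cells of plate 1 (12%, 6.36 to 20%) and 4 of 72 of plate 2 (5.56%, 1.53 to 13.6%). Of these cells, 8 of 12 and 2 of 4 were Mfap5-positive, against 7.08 and 1.06 from the product of the shares, and 10 of 12 and 3 of 4 had Ogn, against 9.24 and 2.11. The rank correlation of Omd with Ogn over mSC-like cells was 0.02 and 0.11. In the cells with Omd its median before thinning was 213 CPM in plate 1 (131 to 588) and 374 CPM in plate 2 (36 to 452), where the lowest cell was at the threshold of 5 reads after thinning. The shares were 13.6% (6.04 to 25%) of Mfap5-positive and 9.76% (2.72 to 23.1%) of Mfap5-negative cells in plate 1, and 10.5% (1.30 to 33.1%) and 3.77% (0.460 to 13%) in plate 2.

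Decorin and biglycan, the members that carry chondroitin or dermatan sulfate, were rare in both SC classes. The mSC-like cells with Dcn numbered 3 of 100 in plate 1 and 1 of 72 in plate 2. In the nm(R)SC-like class these were 7 of 111 and 3 of 240. The single mSC-like cell of plate 2 with Dcn had 1672 CPM and 99.2% of the reads of its class. Bgn was detected in 2 of 100 mSC-like cells of plate 1, at 60.6 and 67.2 CPM, and in 0 of 72 of plate 2, which allows a share of up to 4.17%. Its reads numbered 84 in plate 1 and 3 in plate 2 over all cells of the table.

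Lum, Prelp and Fmod, of the same branch as Omd, were found in very few cells. Lum was detected in 1 of 100 and 0 of 72 mSC-like cells, and its 402 reads in the whole table came from 12 wells. Prelp was detected in 2 of 100 and 0 of 72 mSC-like cells, at 88.6 and 873 CPM. Fmod had 6 reads in all, 1 in plate 1 and 5 in plate 2, and no cell passed the threshold.

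Cells of all classes with 5 or more unthinned reads of Dcn were looked at for fibroblast markers. In plate 1 there were 19 such cells, 6 mSC-like, 10 nm(R)SC-like and 3 unnamed, and in plate 2 there were 5. Pdgfra had 5 or more reads in none of these 24 cells, whereas Col1a2, which most SCs here also expressed, had them in 19 and 4. Col1a1 had them in 16 and 4 of these cells, and Col3a1 in 18 and 5. For comparison, Col3a1 was detected after thinning in 31 of 100 and 18 of 72 mSC-like cells. Among nm(R)SC-like cells it was detected in 93 of 111 and 129 of 240. The summed level of 14 fibroblast-like cell markers had a median of 2814 CPM over the 19 cells (381 to 5875) and of 4164 CPM over the 5 cells (107 to 5159). Whole classes had 1739 and 1267 CPM (mSC-like) and 4191 and 1815 CPM (nm(R)SC-like), with Col1a2 the highest gene. Cd34 was at 0 in both classes in plate 1, and Ly6c1 and Clec3b were at 0 in both classes of both plates. The part of other cells' RNA in the rare Dcn, Lum and Prelp counts was not tested. In the unnamed cluster, the only plate 2 cell deep enough to be thinned had both Dcn and Prelp.

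**Figure D3:**
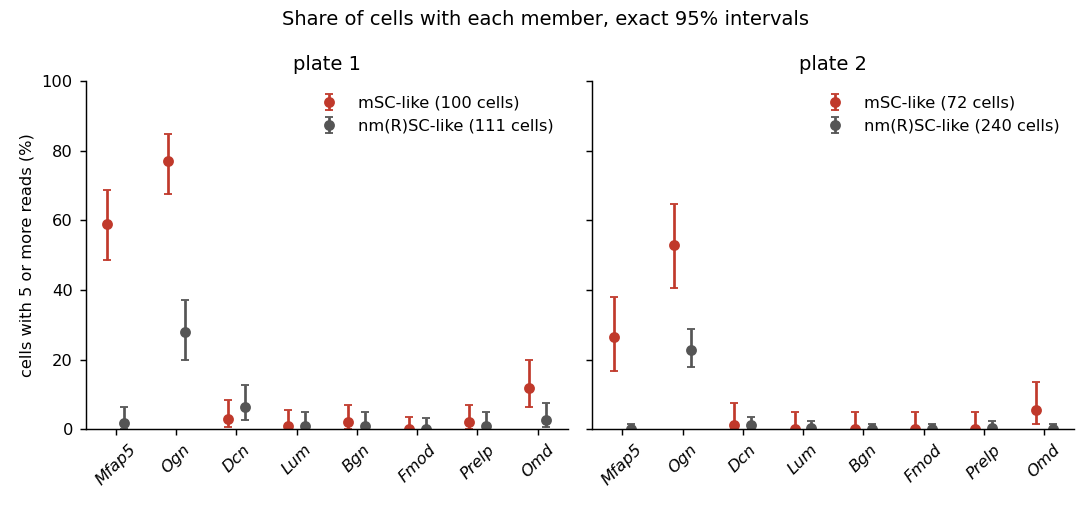
Percentage of mSC-like (red) and nm(R)SC-like (grey) cells with 5 or more of 100000 reads of each member, with exact 95% binomial intervals, in plate 1 (left) and plate 2 (right). Mfap5 and Ogn stand above the other 6 genes in mSC-like cells of both plates, and among nm(R)SC-like cells only Ogn exceeds 20%.

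Counted over the 8 genes, mSC-like cells mostly held 0, 1 or 2 members. In plate 1, 17 of 100 cells had none, 20 had 1, 53 had 2 and 10 had 3. In plate 2, 32 of 72 had none, 21 had 1, 16 had 2 and 3 had 3. No mSC-like cell had 4 or more, and the most in any nm(R)SC-like cell was 2.

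**Figure D4:**
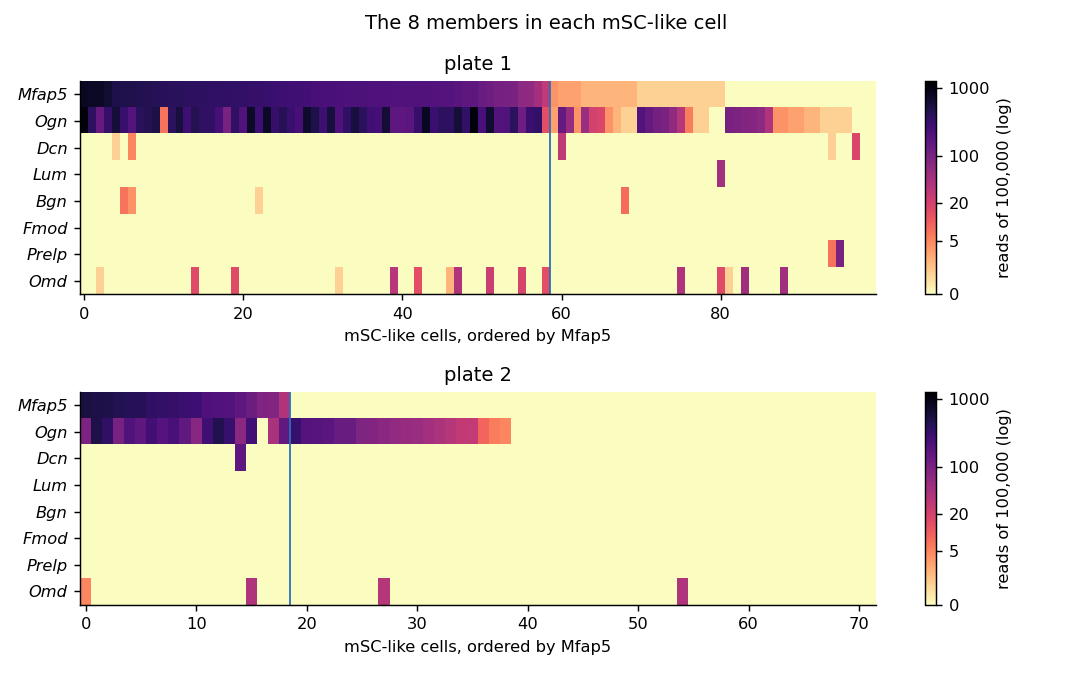
Each column is an mSC-like cell, ordered by falling Mfap5, and each row a member; the colour gives reads of 100000 on a log scale, for plate 1 (top) and plate 2 (bottom). The blue line ends the Mfap5-positive cells (59 and 19). Ogn fills nearly all columns left of it and part of those right of it, whereas the other rows hold scattered single cells.

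To ask which members differ between mSC-like and nm(R)SC-like cells, reads were summed per plate and class, giving 4 sums, and fitted with edgeR's quasi-likelihood test with the plate as a block. Of 13186 genes tested, 287 were called at an adjusted p under 0.05 (2.18%), 155 higher (1.18%) and 132 lower (1.00%) in mSC-like cells, against 138 without the plate block. With DESeq2 1690 were called, 734 of them higher. Among the 6 members open to a test, 5 passed the filter on low counts, all but Fmod, and 0 were called. At an unadjusted p under 0.05 the edgeR test gave 1 of the 5, Omd, against 1616 of all genes tested (12.3%), and DESeq2 called Omd. In plate 1 the mSC-like sum of Omd was 49.0 CPM and the nm(R)SC-like sum 8.37 CPM, of which a single cell held 81.2%, and in plate 2 the sums were 30.1 CPM, of which a single cell held 68.1%, and 0.0260 CPM. Its fitted log2 ratio was 6.25 ± 2.31 (SE; edgeR, adjusted p = 0.30), and the adjusted p was 5.1e-05 with DESeq2. Without the top cell of each plate and class the mean within-plate log2 ratio of Omd was 3.78. Dcn was lower in mSC-like cells of both plates, at 9.97 against 49.0 CPM and 4.66 against 24.3 CPM, with a log2 ratio of -2.17 ± 1.00 (SE) that did not pass the test (edgeR, adjusted p = 0.44). Without the top cell of each plate and class the Dcn levels were 4.61 against 30.5 CPM and 0.0369 against 11.7 CPM. Lum, Bgn and Prelp had ratios of opposite sign in the 2 plates and SEs above 2 on the log2 scale. Mfap5 and Ogn, which were not tested, had within-plate log2 ratios (1 CPM added) of 6.55 and 9.54 and of 4.05 and 2.21. The median log2 ratio over all genes tested was -0.12.

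Genes that work with the members were followed in 4 lists. Their CPM are of the mSC-like and nm(R)SC-like classes given above. Their fitted log2 ratios and tests used classes clustered on a set of genes without the gene tested, so the cells differed somewhat. Of 10 other SLRP genes, 1 passed the filter on low counts (Ecm2, not called), and all 10 were under 4 CPM in every sum. Of 17 genes of microfibrils and elastic fibres, 15 were tested, 1 was called higher and 1 lower in mSC-like cells, with a median log2 ratio of -1.40. Lox, the lysyl oxidase that cross-links collagen and elastin, was higher, at 198 against 0.811 CPM in plate 1 and 15 against 0 CPM in plate 2 (edgeR, adjusted p = 0.0096, and 0.14 without the plate block). Ltbp4, which tethers latent TGF-β to microfibrils, was lower, at 0.927 against 86.3 and 0.313 against 44.9 CPM (log2 ratio -5.84 ± 1.10, SE; edgeR, adjusted p = 0.035). The call on Ltbp4 was lost without the plate block (adjusted p = 0.093), with a minimum of 2500 genes (0.083) and without integration of the plates (0.077, all edgeR). The fibrillin gene Fbn1, whose protein Mfap5 binds, stood at 26.9 against 28.9 CPM and 34.4 against 0.916 CPM and was not called (edgeR, adjusted p = 0.70). Of 18 genes that build chondroitin and dermatan sulfate chains, 15 were tested and 0 called by edgeR (median -0.25), and of 10 genes of TGF-β signalling and propeptide processing 9 were tested and 0 called (median 0.30).

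**Figure D5:**
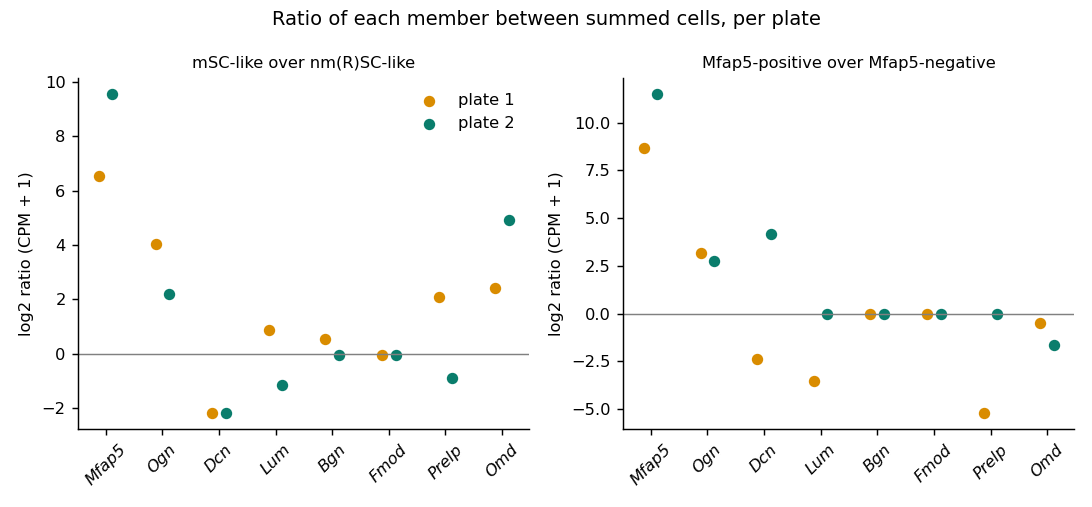
Log2 ratio of summed CPM (1 CPM added) of each member, mSC-like over nm(R)SC-like cells (left) and Mfap5-positive over Mfap5-negative mSC-like cells (right), with a point for each plate (orange plate 1, green plate 2). Mfap5 and Ogn lie above 0 in both panels and both plates. Of the others, Omd lies above 0 and Dcn below it in both plates on the left (4.92 and -2.16 in plate 2), and Omd lies below 0 in both plates on the right (-0.47 and -1.66).

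Mfap5-positive and Mfap5-negative mSC-like cells were then compared in the same way. Because Mfap5 was picked as a leading gene of a cluster, the genes that differ along it carry that choice with them, and calls on genes other than the 6 members are given as a description. Of 11096 genes, 126 were called (1.14%), 82 higher (0.739%) and 44 lower (0.397%) in Mfap5-positive cells. Without the plate as a block the edgeR test called 0 (757 at an unadjusted p under 0.05), and with DESeq2 778 were called. Of the 6 members, Dcn, Bgn and Omd passed the filter on low counts, and 0 were called by edgeR or DESeq2, and 0 had an unadjusted p under 0.05 with edgeR, against 832 of all genes tested (7.50%). The Omd sums were 34.7 CPM (positive) and 48.5 CPM (negative) in plate 1 and 11 and 36.8 CPM in plate 2, with a log2 ratio of -0.97 ± 1.57 (SE; edgeR, adjusted p = 1). Dcn changed direction between the plates, at 0.688 against 7.82 CPM and 17.8 against 0.0498 CPM, the plate 2 value coming from a single cell.

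The genes farthest up in Mfap5-positive cells were Cyb5r2, Spp1, Etnppl, Them5 and Lctl. Spp1, which encodes osteopontin, a secreted phosphoprotein of bone and nerve, was at 4793 against 10.3 CPM in plate 1 and 6670 against 0.0498 CPM in plate 2, a higher level than that of Mfap5 itself (2904 and 3003 CPM). The other 4 were at 35.9 to 192 CPM in positive and at most 0.178 CPM in negative cells. Farthest down were Fam180a, Cmtm2b, Mapt, Cyba and Ppic, at 28.7 to 373 CPM in negative and at most 12.8 CPM in positive cells. Among them Mapt, the gene of the microtubule protein tau, stood at 11.1 against 373 CPM and 0.0709 against 118 CPM. Exons of Cyb5r2 and Lctl overlap genes of the opposite strand and those of Spp1 a gene of the same strand, so their reads may be shared.

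From the fixed lists, Lox was the only gene called, at 325 against 6.84 CPM and 57.9 against 0 CPM in Mfap5-positive cells. Of the microfibril and elastic fibre genes, 11 were tested, with a median log2 ratio of -0.92, against -0.23 over all genes tested. Fbln5, which binds elastin, had 241 against 56.3 CPM and 610 against 1.59 CPM and was not called. Fbn1 was at 19.5 against 38.2 and 2.06 against 45.8 CPM. No gene of the chain synthesis list (15 tested, median -1.60) or the TGF-β and propeptide list (8 tested, median -0.13) was called, and none of the 10 other SLRP genes passed the filter.

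Over mSC-like cells, the genes whose pattern was most like that of Mfap5 were ranked by the lower of their rank correlations in the 2 plates, among 1914 genes detected in at least 20% of mSC-like cells of each plate. They were Zfp91 (0.71 and 0.81), Apod (0.71 and 0.76), Cntf (0.70 and 0.83), Sncg (0.70 and 0.69), Ogn (0.74 and 0.66), Pmp22 (0.66 and 0.66), Cfap100, Fam178b, Tppp3 and Sbspon. Cntf, the ciliary neurotrophic factor gene, had 4286 against 274 CPM (Mfap5-positive against Mfap5-negative cells) in plate 1 and 3784 against 111 CPM in plate 2, and Zfp91, whose exons overlap those of Cntf on the same strand, had nearly the same levels (4355 against 313 and 3788 against 113 CPM), so these count as a single signal. Apod, the gene of the lipid carrier apolipoprotein D, was at 2152 against 32.9 CPM and 1662 against 2.41 CPM. Pmp22, a gene of compact myelin and of the markers that named the class, was at 80867 against 30543 and 113614 against 38508 CPM.

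The patterns most opposed to Mfap5 were those of Cuedc2 (-0.67 and -0.67), Ybx1, Emid1, Mbp and mt-Co1. Mbp, the myelin basic protein gene, was at 8975 against 18602 CPM and 10939 against 33248 CPM. Both groups therefore expressed these myelin genes, with Pmp22 higher and Mbp lower in the Mfap5-positive cells of each plate.

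The list for Ogn largely repeated that of Mfap5. Its 10 most alike genes were Pmp22 (0.67 and 0.75), Mfap5, Sncg, Cntf, Mt3, Cfap100, Zfp91, Fam178b, Apod and Dhrs3, of which Mt3 and Dhrs3 were not on the Mfap5 list. Mt3, a metallothionein gene, was at 1376 against 315 CPM and 430 against 143 CPM in Mfap5-positive and Mfap5-negative cells. Among the patterns most opposed to Ogn were those of Cuedc2, mt-Co1, Klf13 and Ybx1. No other member was detected in enough cells to be ranked.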

How the data were processed

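The values used are the untransformed read counts that the authors deposited, with genes as rows and cells as columns. Per the labels, reads were demultiplexed with bcl2fastq, aligned with STAR 2.6.1c to GRCm38.p5 and counted with featureCounts, while the study's methods name an older STAR version and a human build. Strand and multi-mapping settings were not stated. Reads without molecular identifiers are not independent molecules. Identifiers were given symbols for 25587 of 25700 rows.

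Cells with 1500 or more genes were clustered in R 4.3.3 with Seurat 5.3.0 (plates integrated, 12 dimensions, resolution 0.5) without the 8 members. Clusters were named from 20 markers, which were left out of tests. For other genes of the class comparison, genes were split at random into 2 sets and each set was tested between classes clustered on the other. Each of these tests had its own 4 sums. The CPM printed for such genes are of the classes clustered without the 8 members only. Reads summed per plate and class (4 sums, the cells themselves not being replicates) were tested with edgeR 4.0.16 (TMM, filterByExpr, plate block, Benjamini-Hochberg over all genes tested), with DESeq2 1.42.0 as an alternative. SEs were taken from the log2 ratio and its F statistic. Plates pair the classes because each plate holds the same animals; deviations of sums of the same plate correlated at 0.16 for the classes and 0.09 for the Mfap5 groups, over genes. Cells were sorted singly into wells. Doublets were not called, so wells that held more than 1 cell were not looked for. No cells had identical counts. The tests were tried on simulated counts.

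The members, gene lists and markers were chosen with earlier results of these data known. Named genes were the members, called genes of the lists, the 10 most and 5 least alike genes in rank correlation, and, between Mfap5 groups, the 5 called genes farthest up and down with 20 CPM or more in the higher group of both plates. Ecm2, Fbn1 and Fbln5 were named outside this rule, after their values were seen.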

Additional observations from a re-analysis of the deposited data

How the results depend on the processing

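The number of cells limits what can be said of the rare members: a count of 0 in 72 cells still allows a share of up to 4.17%, and with 2 plates an SD rests on 2 values. The shares of mSC-like cells with Mfap5 and Ogn, the share of Mfap5-positive cells with Ogn and the log2 odds ratio kept within the spread of the plates under every alternative run, except that the odds ratio was 3.54 in place of 5.79 when 1 read counted as detected. This spread was 1 SD over 2 plates, 23.1 points for Mfap5 and 17.1 for Ogn, so staying within it is a weak check. Leaving out a plate cannot exceed it. Leaving out a plate gave 26.4 to 59.0%, 52.8 to 77.0%, 94.7 to 100% and 4.33 to 7.24. The cause of the changes given here was not tested.

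The number of genes called between mSC-like and nm(R)SC-like cells was 287, and became 190 with a minimum of 2500 genes, 1690 with DESeq2, 138 with no replicate block and 556 with cells thinned before summing, and the number of members called was 0 and became 1 (Omd) with DESeq2. Between Mfap5-positive and Mfap5-negative cells it was 126, and became 288 with no integration, 76 with no thinning, 30 with cells thinned to 50000 reads, 778 with DESeq2, 225 with no filter on low counts, 0 with no replicate block and 240 with cells thinned before summing, and no member was called in any of them.

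Ratios of members that were never called turned sign. Between the classes, the log2 ratio of Lum (-2.64) became 0.43 with a minimum of 2500 genes, 0.55 with no replicate block, 0.86 in plate 1 alone and -1.14 in plate 2 alone. That of Bgn (-0.23) became 1.20 with a minimum of 2500 genes, 1.14 with no replicate block, 0.75 with thinned cells, 0.53 and -0.03 in plates 1 and 2 alone and 0.57 without the top cell of each plate and class. That of Prelp (-1.59) became 2.15 with no replicate block, 2.08 and -0.90 in plates 1 and 2 alone and 0.24 without the top cells. Between Mfap5 groups, Dcn (2.44) became -2.38 and 4.16 in plates 1 and 2 alone and -0.85 without the top cells. Bgn (-0.06) became 0.13 with a minimum of 1000 genes, 1.12 with no thinning and with 50000 reads, 0.87 with DESeq2 and 0.18 without the top cells, and Omd (-0.97) became 0.33 with thinned cells. Without plates as replicates there is no test, so plate values alone carry no p. Counts of genes cannot be given without the top cell or for a single plate and were not run.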
